A study of Mus musculus with 18 samples.

Results

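Collagen chain genes were followed in left ventricles of young wild-type (WT), aged WT and Sesn2-knockout (Sesn2-KO) mice after sham surgery or after cardiac ischaemia and reperfusion (IR). The genes were chosen by name: of 24421 genes in the count tables, 44 had a symbol made of Col, a number, the letter a and a number. The 36 that reached 0.5 CPM (reads counted for a gene, scaled to a common library total) in at least 3 of the 18 libraries were kept as members. They comprised 8 of the 11 fibrillar collagen genes, 8 of 8 basement membrane genes (the type IV chains and the multiplexins Col15a1 and Col18a1) and 20 of 25 genes of other types. Of these 36, 33 passed the count filter of the test, and Col6a5, Col9a3 and Col17a1 did not. At the edge of the rule, Col6a5 and Col17a1 reached the minimum in 3 libraries and Col9a2 in 2, which left Col9a2 out.

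Each of the 6 groups held 3 libraries. All mice were C57BL/6. Young WT and Sesn2-KO mice were 3 to 4 months old and aged WT mice 24 to 26 months. Young WT mice were bought from Jackson, aged WT mice came from Charles River, and the knockout mice were bred by the authors, so source changed together with age and with genotype. In IR mice the left anterior descending artery was closed for 45 min and reopened for 24 h, whereas sham mice had only the chest opened. How the Sesn2 allele was made is not given in the sources used here. The study asked how age and Sesn2, which encodes the stress-induced protein sestrin 2, bear on the response of the heart to IR.

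Collagens are secreted proteins of 3 chains wound into a triple helix. Fibrillar types I, III and V form the tensile fibres of the cardiac interstitium and are made mainly by fibroblasts, type IV forms the sheet of the basement membrane around muscle cells and capillaries, and types VI, VIII, XII and XIV link or decorate these structures. Chains are hydroxylated and folded in the endoplasmic reticulum, trimmed outside the cell, crosslinked by lysyl oxidases and cut by matrix metalloproteinases. After an infarct the fibrillar types are known to build the scar, and the rarer type IV chains encoded by Col4a3, Col4a4 and Col4a5 are best known from the basement membranes of kidney, lung and inner ear.

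The DNA just upstream of genes on which the results turned is shown because 4 of them were called higher in young IR and an adjacent pair was called lower. Of the 36 members, 28 matched an entry in the RefSeq promoter table (GRCm38.p6). Col1a1, Col4a3 and Col5a2 were among those that did not, so the choice of sequences was limited by this. Each sequence is written 5′ to 3′ on the strand of its gene, and capitals mark a match on either strand to the TATA box (TATAAA), to the CCAAT box or to the GC box (GGGCGG). The first 4 are the 120 bases before the RefSeq start, and the last is the 71-base stretch between the annotated starts of Col4a4 and Col4a3, written on the Col4a4 strand. None overlapped an exon in GENCODE M21.
Col3a1, chr1:45311418-45311537, plus strand: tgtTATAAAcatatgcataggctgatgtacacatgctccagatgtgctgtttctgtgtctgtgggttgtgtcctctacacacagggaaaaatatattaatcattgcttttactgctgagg
Col5a1, chr2:27886305-27886424, plus strand: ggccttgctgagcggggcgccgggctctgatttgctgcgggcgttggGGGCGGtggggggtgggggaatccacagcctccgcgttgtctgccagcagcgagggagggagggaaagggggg
Col6a3, chr1:90843972-90844091, minus strand: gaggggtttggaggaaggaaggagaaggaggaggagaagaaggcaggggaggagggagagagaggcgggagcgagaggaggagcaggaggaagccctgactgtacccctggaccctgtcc
Col8a1, chr16:57754738-57754857, minus strand: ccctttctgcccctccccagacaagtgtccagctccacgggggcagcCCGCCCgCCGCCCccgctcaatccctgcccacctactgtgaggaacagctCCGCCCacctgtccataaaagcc
Col4a4 and Col4a3, chr1:82586850-82586920, minus strand: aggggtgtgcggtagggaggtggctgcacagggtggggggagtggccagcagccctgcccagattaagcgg

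The upstream stretches differed in composition. That of Col3a1 was 40% G or C and held 1 match to TATAAA, which 6.34% of 32851 promoters hold in the same 120 bases. The stretches of Col5a1, Col6a3 and Col8a1 were 72.5%, 63.3% and 67.5% G or C. Matches to GGGCGG, which 26.5% of promoters hold, numbered 1 in Col5a1, 3 in Col8a1 and 0 in Col6a3. No CCAAT was found in any of the 4 windows (21.3% of promoters hold it). The Col4a3 and Col4a4 stretch was 69% G or C and held none of the 3 motifs, which in 71 bases are held by 4.41% of promoters for the TATA box, 13.3% for the CCAAT box and 20.7% for the GC box. A match is a run of letters and was not tested as a binding site. Col4a3 and Col4a4 lie head to head on chromosome 1, and Col4a1 and Col4a2 lie head to head on chromosome 8 with 21 bases between start sites and 22 shared exon bases. Col4a5 and Col4a6 on chromosome X start 1309 bases apart. Col3a1 (chr1:45311538-45349706, plus strand) and Col5a2 (chr1:45374321-45503282, minus strand) are convergent neighbours 24.6 kb apart.

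Libraries held 9404531 to 14458047 gene counts. Sesn2 read 2.56 to 5.96 CPM in the 12 WT libraries and 0 to 0.370 CPM in the 6 Sesn2-KO libraries. On the first principal component of all tested genes (40.1% of variance), young IR 1 lay at -11.3 against 19.9 and 28.6 for the other young IR libraries, and aged IR 2 at 4.60 against 31.6 and 27.2. Sesn2-KO sham libraries lay at 2.23 to 8.98, outside the WT sham range of -47.6 to -26.2. Within groups, deviations followed transcript length in several libraries, with a rank correlation of up to 0.5 in young sham 1. This touches collagens because they are long: the median longest transcript was 6119 nucleotides for the 33 tested members and 3413 for all tested genes. Results are therefore also given without 6 libraries that follow length most, 1 per group.

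In young sham ventricles the levels per kilobase of longest transcript were led by basement membrane and interstitial chains. Col4a1 was at 65.9 to 73.1 CPM per kb (median 66.8), Col3a1 at 48.0 to 71.4 (54.1), Col4a2 at 46.0 to 55.2 (46.8) and Col1a2 at 29.5 to 35.7 (32.3). Col4a1 and Col3a1 overlapped in range, as did Col3a1 and Col4a2, so their order was not resolved. Col6a1 (29.0), Col6a2 (25.7), Col15a1 (24.9) and Col1a1 (15.9) followed by their medians. Further down stood Col8a1 (9.13), Col4a5 (8.72), Col5a2 (8.63) and Col5a1 (8.61), whose ranges overlapped. Col5a3 (5.48), Col6a3 (5.03), Col18a1 (3.47), Col14a1 (3.4) and Col16a1 (2.97) came next. The genes that later fell after IR were low already, with Col4a4 at 1.27, Col6a6 at 1.16 and Col4a3 at 0.893 CPM per kb, each overlapping its neighbours in this order. Col12a1 (0.156) and Col22a1 (0.132) stood near the bottom.

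Summed over a class, fibrillar collagens went from 757 ± 101 CPM in young sham to 2123 ± 1097 CPM in young IR (SD, n = 3 each, as for all sums here). In aged hearts the fibrillar sum was 599.9 ± 36.02 CPM in sham and 1501 ± 196 CPM in IR. In Sesn2-KO hearts it was 1205 ± 348 CPM in sham and 1795 ± 395 CPM in IR. The knockout sham sum thus lay between the WT sham and WT IR means. Basement membrane collagens summed to 1001 ± 80.4 CPM in young sham and 1470 ± 365 CPM in young IR, to 848.3 ± 60.01 and 1096 ± 366 CPM in aged hearts, and to 914.4 ± 247 and 1360 ± 359 CPM in knockout hearts. Other collagens summed to 410.5 ± 17.6 and 767.2 ± 309 CPM in young, 373.1 ± 2.91 and 521 ± 10.3 CPM in aged and 472.3 ± 67.4 and 645.8 ± 159 CPM in knockout hearts. Sums are ruled by the most abundant chains, and they are given with no test.

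**Figure D1:**
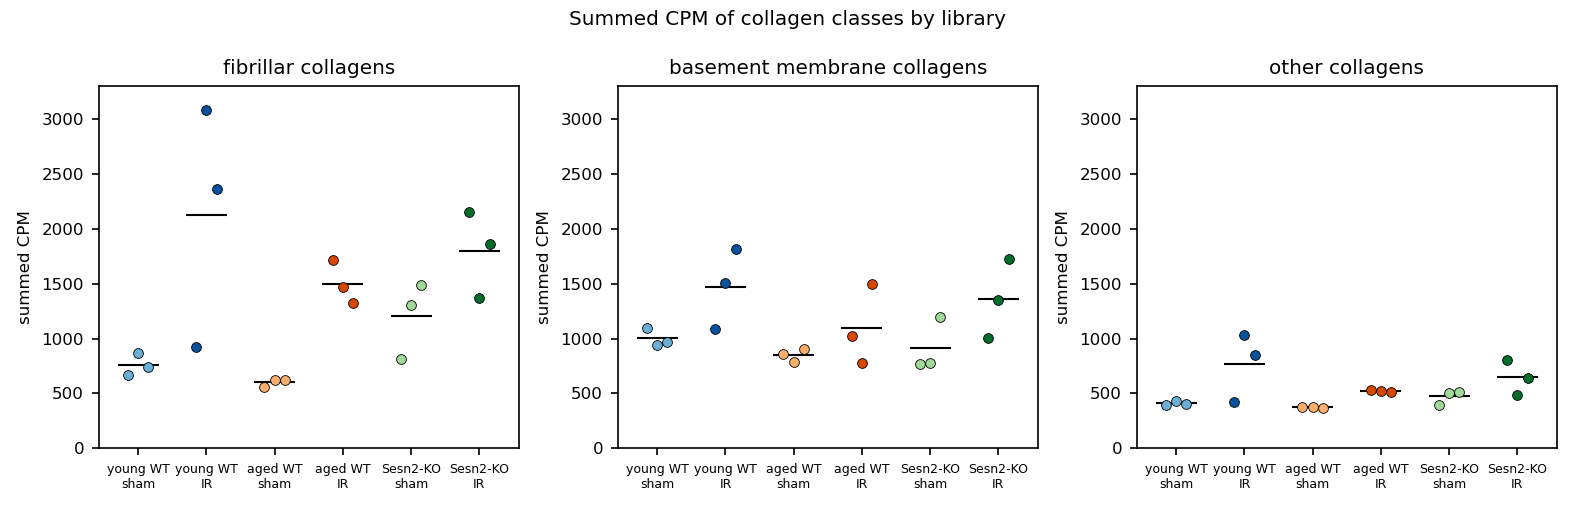
Summed CPM of the fibrillar, basement membrane and other collagen members in each library (points, 3 per group) with the group mean (line), on a linear axis from 0. Fibrillar sums in aged sham lie between 558.4 and 622.5 CPM and in aged IR between 1325 and 1712 CPM, while young IR runs from 925.9 to 3082 CPM.

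The make-up of collagen RNA followed these sums. Fibrillar genes made up 34.9% of collagen CPM in young sham and 46.6% in young IR, 32.95% and 48.5% in aged hearts, and 46.1% and 47.0% in knockout hearts. Basement membrane genes made up 46.2%, 46.6% and 35.4% in young, aged and knockout sham and 35.9%, 34.7% and 36.1% in the IR groups. Young sham fibrillar shares of 30.9% to 38.6% overlapped those of young IR (37.9% to 54.9%) through young IR 1. Knockout sham shares of 41.3% to 50.5% lay above every young sham share. Scored as the mean of log2(CPM + 1), in which each gene weighs the same, fibrillar genes differed between IR and sham by 0.96 in young and 0.89 in aged hearts. The basement membrane score differed by -0.03 in young and -0.29 in aged hearts. The mean log2 of the basement membrane sums, taken per library, differed by 0.53 and 0.32, the opposite sign. In knockout hearts the score of fibrillar genes was 5.785 in sham and 6.334 in IR. That of basement membrane genes was 4.951 in knockout sham and 5.203 in knockout IR, thus higher in IR. In bulk tissue, fewer cells of a type and less RNA per cell cannot be told apart.

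In young WT hearts, fibrillar collagens and the type VI and VIII chains Col6a3 and Col8a1 rose after IR, while Col4a3, Col4a4 and Col6a6 fell. The comparison asks what IR does in the young heart. Of 33 tested members 8 were called higher and 3 lower at an adjusted p below 0.05 (edgeR quasi-likelihood, Benjamini-Hochberg over all genes), where 4.17% of all 13859 genes were called higher and 1.90% lower. By class, 6 of 8 fibrillar genes rose and 0 fell, 0 of 8 basement membrane genes rose and 2 fell, and 2 of 17 other genes rose and 1 fell. The median log2 fold changes were 1.28, 0.28 and 0.11 in these classes and 0.01 over all genes. Among genes with a longest transcript of at least 5000 nucleotides, 2.75% were called higher and 2.42% lower in this comparison. The same shares were 2.82% and 3.44% in aged IR and 1.87% and 2.29% in knockout sham, which are described further on.

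Col1a1, the main chain of type I collagen, was at 81.2, 96.6 and 94.5 CPM in young sham and 135, 420 and 314 CPM in young IR (libraries 1, 2 and 3, as in all such lists). The groups did not overlap, and young IR 1 lay nearest to sham. The log2 fold change was 1.67 ± 0.30 (SE, as after all log2 fold changes; adjusted p = 0.00489). Its partner chain Col1a2 rose by 1.33 ± 0.31 (adjusted p = 0.0192). Col3a1, which encodes the chain of type III collagen, was at 267, 398 and 301 CPM in sham and 366, 1491 and 1087 CPM in IR. Here young IR 1 fell below young sham 2, so the groups overlapped. The change was 1.61 ± 0.38 (adjusted p = 0.0194). Of 16 alternative runs, the call was kept in 13 for Col1a1 and in 9 each for Col1a2 and Col3a1.

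Type V collagen nucleates fibrils and sets their width. Col5a2 was at 57.1, 58.6 and 52.9 CPM in sham and 72.9, 216 and 199 CPM in IR, and the groups did not overlap. It rose by 1.53 ± 0.30 (adjusted p = 0.00805). Col5a1 rose by 1.196 ± 0.25 (adjusted p = 0.0113) and Col5a3 by 1.23 ± 0.25 (adjusted p = 0.0105), both without overlap. Calls were kept in 13 of 16 alternative runs for Col5a2, 11 for Col5a1 and 13 for Col5a3. The fibrillar genes not called were Col11a2, at -0.85 (adjusted p = 0.146), and Col27a1, at 0.54 (adjusted p = 0.0883).

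**Figure D2:**
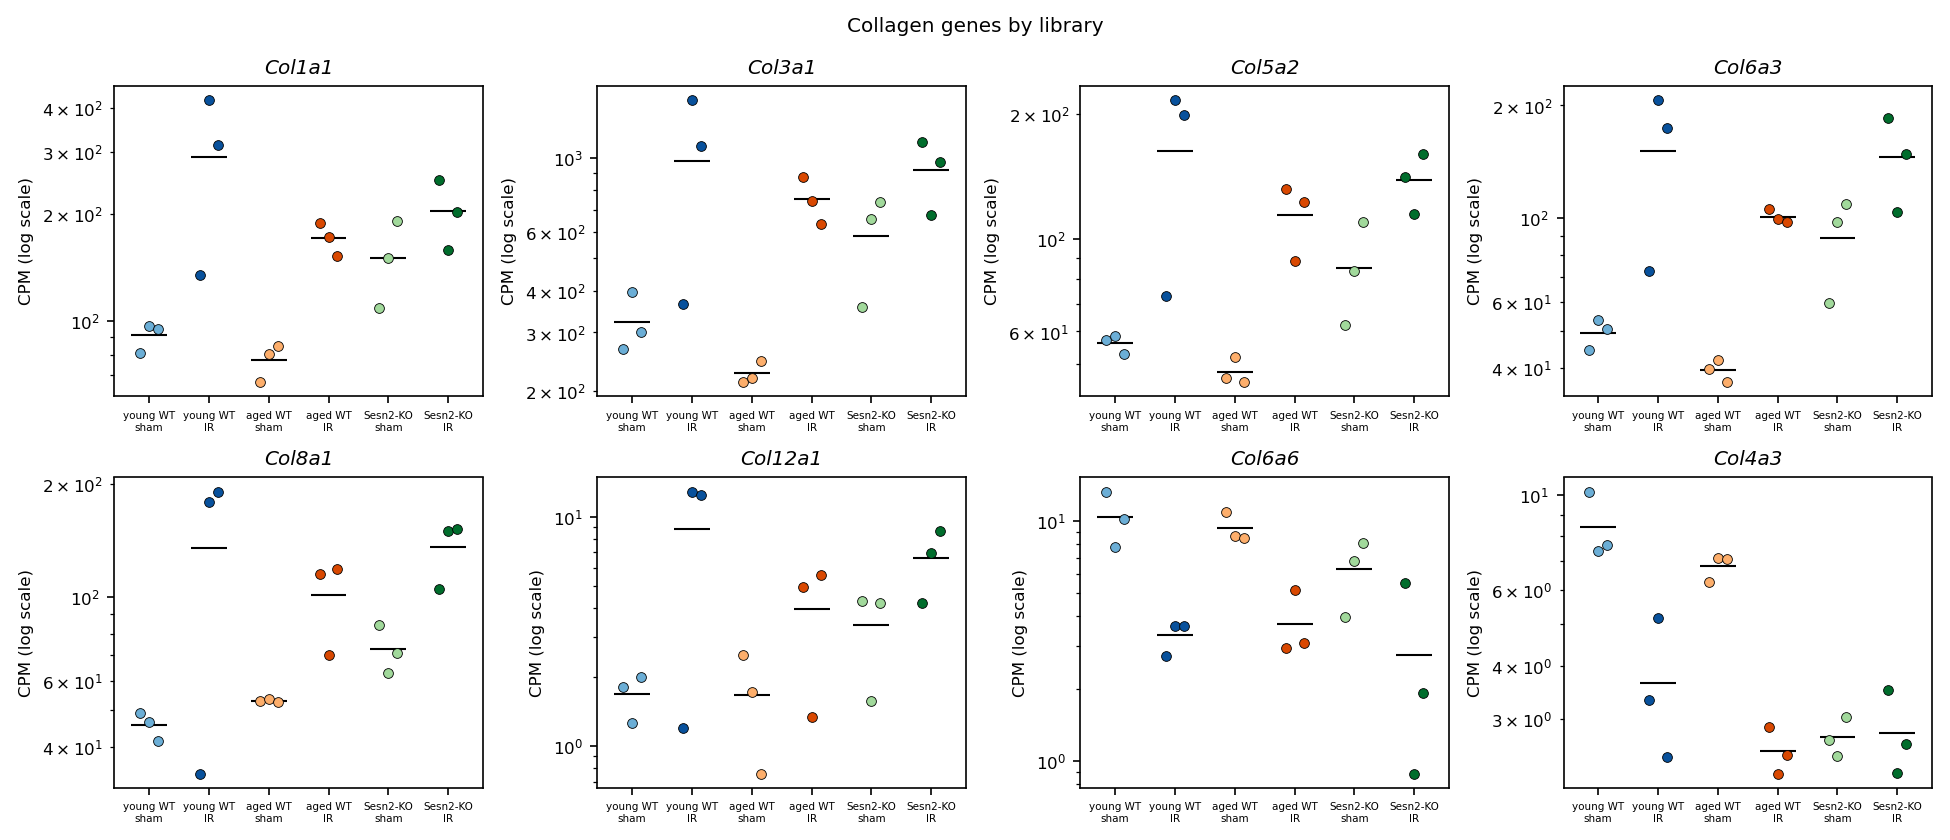
CPM of 8 collagen genes in each library (points, 3 per group, libraries 1 to 3 from left to right) with the group mean (line), each panel on its own log axis. Col1a1, Col5a2 and Col6a3 do not overlap between young sham and young IR, Col3a1, Col8a1 and Col12a1 do through young IR 1, and Col4a3 is low in every aged IR and Sesn2-KO library.

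Among the other types, Col6a3 encodes the large chain of the beaded filaments of type VI collagen. It was at 44.5, 53.6 and 50.8 CPM in young sham and 72.5, 207 and 174 CPM in young IR, with no overlap, a change of 1.61 ± 0.30 (adjusted p = 0.00608). Its partners Col6a1, at 0.64 ± 0.28 (adjusted p = 0.194), and Col6a2, at 0.77 (adjusted p = 0.108), were not called. Col8a1, a short-chain collagen of vessel walls and heart, was at 49.3, 46.6 and 41.4 CPM in sham and 34.0, 179 and 191 CPM in IR. Young IR 1 lay below every sham library. The change was 1.56 ± 0.41 (adjusted p = 0.0341). This call was kept in 6 of 16 alternative runs, and that of Col6a3 in 13. Col12a1, which coats fibrils, showed the same split, at 1.80, 1.26 and 1.99 CPM in sham and 1.19, 12.9 and 12.4 CPM in IR. At 2.38 ± 0.69 it was not called (adjusted p = 0.0504), but it was in 4 of 16 alternative runs. The related Col14a1 was at 0.11 ± 0.40 (adjusted p = 0.917).

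The 3 genes that fell were of low level. Col6a6, a further type VI chain, was at 13.2, 7.81 and 10.2 CPM in young sham and 2.73, 3.66 and 3.66 CPM in young IR, a change of -1.63 ± 0.43 (adjusted p = 0.0345). Col4a3 was at 10.2, 7.42 and 7.64 CPM in sham and 3.33, 5.16 and 2.44 CPM in IR, a change of -1.196 ± 0.24 (adjusted p = 0.00884). Col4a4 was at 18.4, 12.8 and 12.1 CPM in sham and 6.57, 8.37 and 6.48 CPM in IR, a change of -1.01 ± 0.25 (adjusted p = 0.025). None of the 3 overlapped between groups. Their calls were kept in 9 (Col6a6), 12 (Col4a3) and 11 (Col4a4) of 16 alternative runs. Young IR 1 lay within or near the range of its group mates for all 3.

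The abundant type IV chains were not called. Col4a1 was at 484, 436 and 442 CPM in young sham and 558, 712 and 891 CPM in young IR, which did not overlap, at 0.67 ± 0.25 (adjusted p = 0.137). Col4a2 was at 0.60 ± 0.30 (adjusted p = 0.269). Both read highest in the library that tilted most towards long transcripts in 5 of the 6 groups, all but aged sham. With each library's length slope as a covariate, Col4a1 was at 0.63 (edgeR adjusted p = 0.0172) and Col4a2 at 0.56 (adjusted p = 0.0392), both called, in a fit that called 12.9% of all genes. Col15a1 was at 0.35 ± 0.25 (adjusted p = 0.482) and Col18a1 at 0.35 ± 0.23 (adjusted p = 0.427).

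Of the 33 tested members, 10 were higher and 5 lower without overlap of the young groups, where 12.6% and 10.6% of all genes were. With the length slope as a covariate 14 members were called (12.9% of all genes), all 11 among them, whereas without either set of 6 length-following libraries 0 were (0.158% and 0.115% of all genes). A fit of the young libraries alone called 2, Col5a3 and Col6a6 (1.28% of all genes), DESeq2 13 (9.04%) and limma voom 19 (19%). Member calls numbered 5, 10 and 7 without young sham 1, 2 and 3, where 344, 570 and 344 of all genes were called. They numbered 15, 6 and 4 without young IR 1, 2 and 3, where 1465, 429 and 270 of all genes were. Each of these fits tested 14000 to 14015 genes.

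In aged WT hearts the same classes were compared after IR, the question being how the aged heart responds. Col1a1, Col3a1, Col5a1, Col5a2, Col5a3 and Col6a3 were called higher and Col4a3 and Col4a4 lower, each also called in that direction in young hearts. Thus 6 members rose and 2 fell, against 5.36% and 2.24% of all genes. Of fibrillar genes 5 of 8 rose (median log2 fold change 0.95), of basement membrane genes 2 of 8 fell (median -0.05), and of 17 other genes 1 rose (median -0.09).

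Col3a1 was at 213, 219 and 247 CPM in aged sham and 880, 745 and 634 CPM in aged IR. The groups were far apart, at 1.74 ± 0.38 (adjusted p = 0.0125). Col1a1 was at 66.9, 80.7 and 84.8 CPM in sham and 189, 172 and 153 CPM in IR, a change of 1.15 ± 0.30 (adjusted p = 0.0302). Aged IR 2, which lay apart on the first principal component, was within the range of its group mates for both genes and for Col1a2 and Col6a3. For Col5a1, Col5a2, Col5a3 and Col8a1 that library was the lowest of its group, though above every aged sham library. For Col12a1 it was at 1.34 CPM against 4.92 and 5.56 CPM, within the aged sham range. Col5a2 rose by 1.26 ± 0.30 (adjusted p = 0.0194), Col5a1 by 0.95 ± 0.25 (adjusted p = 0.0306) and Col5a3 by 0.94 ± 0.26 (adjusted p = 0.0371). Calls were kept in 12 of 16 alternative runs for Col3a1, 7 for Col1a1, 10 for Col5a2, 8 for Col5a1 and 9 for Col5a3. Col1a2 was at 0.90 ± 0.31 and not called (adjusted p = 0.0861), but it was in 3 of 16 alternative runs.

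Col6a3 was at 39.7, 42.0 and 36.6 CPM in aged sham and 106, 99.5 and 97.8 CPM in aged IR. These libraries were the tightest of any group for this gene after IR, and it rose by 1.36 ± 0.30 (adjusted p = 0.0135). The Col6a3 call was kept in 11 of 16 alternative runs. Col6a1, its filament partner, was at 0.19 ± 0.28 (adjusted p = 0.717). Col8a1 was at 0.93 ± 0.40 (adjusted p = 0.17), Col12a1 at 1.23 ± 0.70 (adjusted p = 0.307), Col14a1 at -0.05 ± 0.40 (adjusted p = 0.953) and Col6a6 at -1.34 ± 0.43 (adjusted p = 0.0669). Of 16 alternative runs, 4 called Col6a6 lower and 2 called Col8a1 higher.

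Col4a3 was at 6.26, 7.13 and 7.09 CPM in aged sham and 2.88, 2.24 and 2.47 CPM in aged IR, with no overlap, a change of -1.42 ± 0.25 (adjusted p = 0.00398). Col4a4 was at 10.9, 11.5 and 12.95 CPM in sham and 5.38, 5.15 and 4.33 CPM in IR, a change of -1.25 ± 0.26 (adjusted p = 0.00989). The calls of Col4a3 and Col4a4 were kept in 15 and 14 of 16 alternative runs. The 2 genes fell while Col4a1 was at 0.47 ± 0.25 (adjusted p = 0.274) and Col4a2 at 0.47 ± 0.30 (adjusted p = 0.372). Col15a1 was at 0.06 ± 0.25 (adjusted p = 0.921) and Col18a1 at -0.16 ± 0.23 (adjusted p = 0.715).

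Without overlap between aged groups, 12 members were higher and 5 lower, against 16.5% and 12.4% of all genes. With the length slope as a covariate 11 members were called (19.9% of all genes), all 8 among them. Without the 6 length-following libraries 1 was (Col4a3, where 10.2% of all genes were called), and without the set of highest slope 0 (0.762%). With no filter on low counts 5 were called (4.08%) and with voom 16 (24.8%). DESeq2 and a fit of the aged libraries alone each called 11 (10.3% and 6.65%). Leaving out an aged sham library gave 2, 5 and 4 calls (libraries 1, 2 and 3), where 232, 936 and 440 of all genes were called. Leaving out an aged IR library gave 2, 9 and 4, where 260, 1070 and 597 of all genes were. Each of these fits tested 14002 to 14017 genes.

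In Sesn2-KO hearts (Sesn2-/-) no collagen gene was called after IR, although every fibrillar gene had a positive log2 fold change. This comparison asks how hearts without Sesn2 respond. edgeR called 0 of 33 members and 0 of all 13859 genes (0% in either direction), with 9 members and 14.7% of all genes at an unadjusted p below 0.05. DESeq2 called 0 members (1.04% of all genes) and limma voom 5 (8.91% of all genes), with Col27a1, Col4a1 and Col4a2 higher and Col4a4 and Col6a6 lower. All 8 fibrillar genes had a log2 fold change above 0 (median 0.62), as did 7 of 8 basement membrane genes and 9 of 17 others, against 49.3% of all genes. Without overlap, 7 members were higher and 0 lower, where 10% and 7.65% of all genes were.

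Col1a1 was at 108, 150 and 192 CPM in knockout sham and 250, 158 and 203 CPM in knockout IR. The ranges crossed, at 0.44 ± 0.30 (adjusted p = 0.511). Col3a1 was at 358, 657 and 739 CPM in sham and 1113, 677 and 974 CPM in IR, also crossing, at 0.66 ± 0.37 (adjusted p = 0.423). Knockout sham 1 was the lowest of its group for these genes, and knockout IR 2 was the lowest of the IR group. Col1a2 was at 0.38 ± 0.31 (adjusted p = 0.591) and Col5a1 at 0.59 ± 0.25 (adjusted p = 0.288).

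Col5a3 at 0.88 ± 0.26 and Col27a1 at 0.65 ± 0.18 (both adjusted p = 0.202) did not overlap between the knockout groups. Col8a1 was at 84.1, 63.0 and 71.0 CPM in sham and 105, 150 and 152 CPM in IR, also without overlap, at 0.90 ± 0.40 (adjusted p = 0.311). Col6a3 was at 0.71 ± 0.30 (adjusted p = 0.282), Col6a1 at 0.21 ± 0.28 (adjusted p = 0.776), Col12a1 at 0.98 ± 0.64 (adjusted p = 0.498) and Col14a1 at 0.19 ± 0.40 (adjusted p = 0.872). Col4a1 was at 0.61 ± 0.25 (adjusted p = 0.285), Col4a2 at 0.60 ± 0.30 (adjusted p = 0.367), Col15a1 at 0.68 ± 0.26 (adjusted p = 0.243) and Col18a1 at 0.43 ± 0.23 (adjusted p = 0.402).

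The sham hearts of Sesn2-KO and young WT mice were compared next, which asks what differs before IR. Of 33 members 0 were called higher and 2 lower, where 3.32% and 1.79% of all genes were called. Col4a3 was at 2.69, 2.46 and 3.04 CPM in knockout sham against 10.2, 7.42 and 7.64 CPM in young sham, a difference of -1.62 ± 0.24 (adjusted p = 0.00134). Col4a4 was at 6.32, 7.60 and 6.37 CPM against 18.4, 12.8 and 12.1 CPM, a difference of -1.09 ± 0.25 (adjusted p = 0.0186). Neither overlapped, and knockout sham levels of both genes lay within or below the range of the young IR libraries. All 8 basement membrane genes had a log2 fold change below 0 (median -0.21), against 46.7% of all genes.

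Of the fibrillar genes, 6 of 8 had a log2 fold change above 0 in knockout sham (median 0.41), against 53.3% of all genes, and none was called. Col3a1 was at 0.86 ± 0.37 (adjusted p = 0.21), Col1a1 at 0.73 ± 0.30 (adjusted p = 0.189), Col1a2 at 0.64 ± 0.31 (adjusted p = 0.275) and Col5a1 at 0.16 ± 0.25 (adjusted p = 0.807). Col1a1 did not overlap between these groups, and Col3a1 did through knockout sham 1. Col6a3 at 0.84 ± 0.30 (adjusted p = 0.125) did not overlap either. Col22a1, a chain of tissue junctions such as that of muscle and tendon, was at 1.66, 0.552 and 1.16 CPM in young sham and 3.34, 2.16 and 2.37 CPM in knockout sham. At 1.202 ± 0.36 it was not called (adjusted p = 0.0632), but it was in 4 of 16 alternative runs.

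Col8a1 was at 0.67 ± 0.40 (adjusted p = 0.401) and Col12a1 at 0.99 ± 0.70 (adjusted p = 0.496) between these sham groups. Col4a1, Col4a2, Col6a1, Col14a1 and Col18a1 lay between -0.16 and -0.01, and Col15a1 was at -0.64 ± 0.25 (adjusted p = 0.174). Without overlap, 8 members were higher and 3 lower, against 15.1% and 10.6% of all genes. Of the 2 calls, Col4a3 remained in all 16 alternatives, and Col4a4 was lost in 5: without either set of length-following libraries, without young sham 1 (where Col22a1 was called instead), and without knockout sham 1 or knockout sham 3. The length slope covariate gave 3 calls (11.6% of all genes), Col22a1 with both, and voom 7 (15.6% of all genes). DESeq2 gave the same 3 (7.22%), and a fit of these groups alone gave 3, Col8a1 with both (4.63%).

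**Figure D3:**
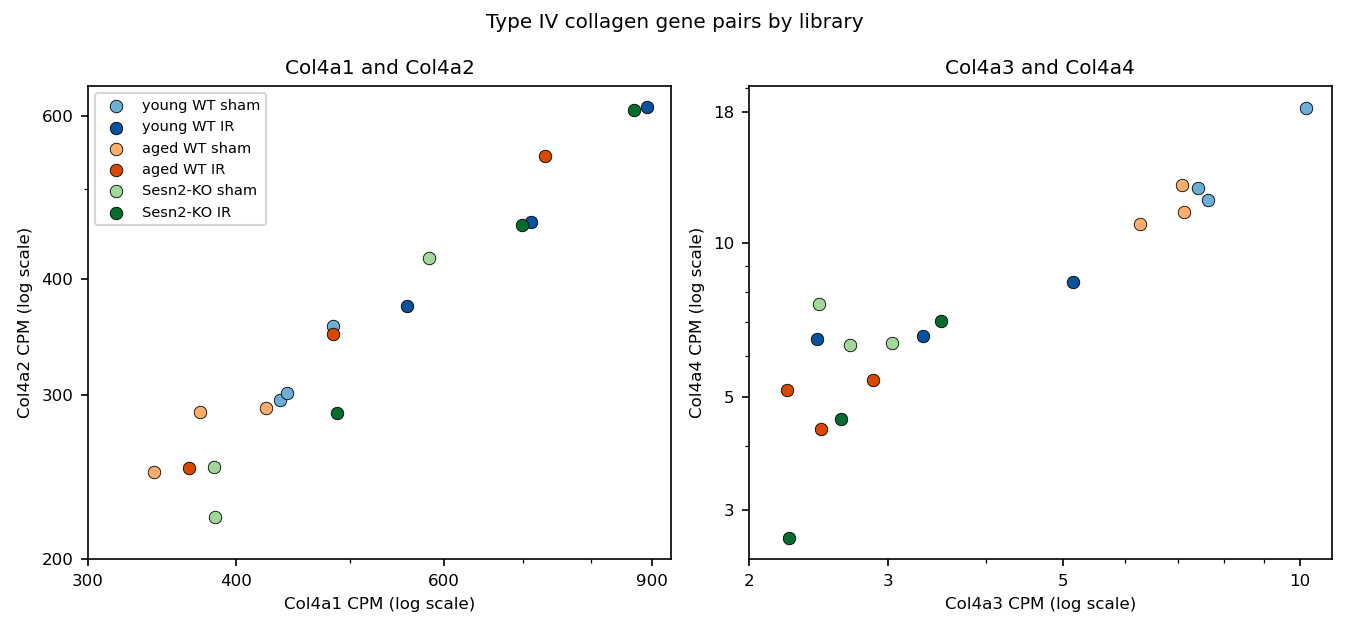
CPM of Col4a2 against Col4a1 (left) and of Col4a4 against Col4a3 (right) in each of 18 libraries, coloured by group, log axes. The right panel sets the 6 WT sham libraries, all above 6 CPM of Col4a3, apart from the 12 others. In the left panel sham and IR libraries overlap on both axes in aged and knockout hearts and on neither in young hearts.

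Type IV collagen is made as heterotrimers, of the chains of Col4a1 and Col4a2 or of those of Col4a3, Col4a4 and Col4a5, and the genes were set against each other per length. The Col4a2 to Col4a1 ratio, between partners, had group medians of 0.671 to 0.746 and ran from 0.592 to 0.791 over the 18 libraries. The partner ratio of Col4a4 to Col4a3 was 1.34 to 1.53 in young sham and 1.37 to 2.25 in young IR, and 1.36 to 1.55 in aged sham and 1.48 to 1.95 in aged IR, each overlapping. It was 1.78 to 2.62 in knockout sham, above both WT sham groups, and 0.997 to 1.69 in knockout IR. Across the 2 networks, the ratio of Col4a4 to Col4a1, which are not partners, was 0.0180 to 0.0248 in young sham and 0.00476 to 0.00770 in young IR, 0.0190 to 0.0220 in aged sham and 0.00388 to 0.00921 in aged IR, and 0.00715 to 0.0130 in knockout sham. The WT sham and WT IR ranges did not overlap, and knockout sham lay below both WT sham groups. In knockout IR the ratio was 0.00248 to 0.00943. After IR in knockout hearts Col4a3 itself was at 0.02 ± 0.26 (adjusted p = 0.977), with values of 3.51, 2.25 and 2.62 CPM, and Col4a4 was at -0.53 ± 0.26 (adjusted p = 0.356).

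Partner chains of types I and VI were also compared per length. The Col1a2 to Col1a1 ratio was 2.03 to 2.19 in young sham and 1.60 to 1.72 in young IR. In aged hearts it was 1.97 to 2.54 in sham and 1.84 to 2.03 in IR, which overlapped. In knockout hearts it was 1.846 to 2.129 in sham and 1.824 to 2.005 in IR, which also overlapped. The Col6a3 to Col6a1 ratio was 0.152 to 0.176 in young sham and 0.208 to 0.387 in young IR, 0.137 to 0.158 in aged sham and 0.285 to 0.371 in aged IR, and 0.296 to 0.355 in knockout sham and 0.383 to 0.568 in knockout IR. Sham and IR ranges of this ratio did not overlap in any of the 3 kinds of mouse, and knockout sham lay above both WT sham groups.

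After IR, Sesn2-KO and young WT hearts did not differ in a collagen gene by edgeR's test. It called 0 of 33 members, with 3 at an unadjusted p below 0.05 (12.7% of all genes), against 0.31% of all genes called higher and 0.123% lower. DESeq2 called 0 and voom 3 (1.64% of all genes), all lower (Col4a4, Col6a1 and Col5a3). Col22a1 was at 1.41 ± 0.40 (adjusted p = 0.16) and Col5a3 at -0.83 ± 0.25 (adjusted p = 0.187), each without overlap. The log2 fold changes of Col1a1, Col3a1 and Col4a3 were -0.51, -0.09 and -0.40.

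Aged and young sham hearts were compared next, in which age and the source of the mice cannot be told apart. edgeR called 0 members, with 2 at an unadjusted p below 0.05 (4.44% of all genes), and DESeq2 and voom also called 0, where edgeR called 0.144% of genes higher and 0.00722% lower. The log2 fold change was below 0 for 25 of 33 members and for 8 of 8 fibrillar genes (median -0.26), against 51.8% of all genes. Col5a3 stood at -0.82 ± 0.26 (adjusted p = 0.595). Between aged and young IR hearts edgeR and voom called 0 members, and 7 had an unadjusted p below 0.05 (3.99% of all genes). DESeq2 called 1, Col5a3 (0.218% of all genes). edgeR called 0.0649% of genes higher and 0% lower. The log2 fold change was below 0 for 25 of 33 members, against 51.2% of all genes, and Col5a3 was at -1.11 ± 0.25 (adjusted p = 0.207). Without young IR 1, edgeR called Col5a1, where 16 of 14013 genes were called.

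**Figure D4:**
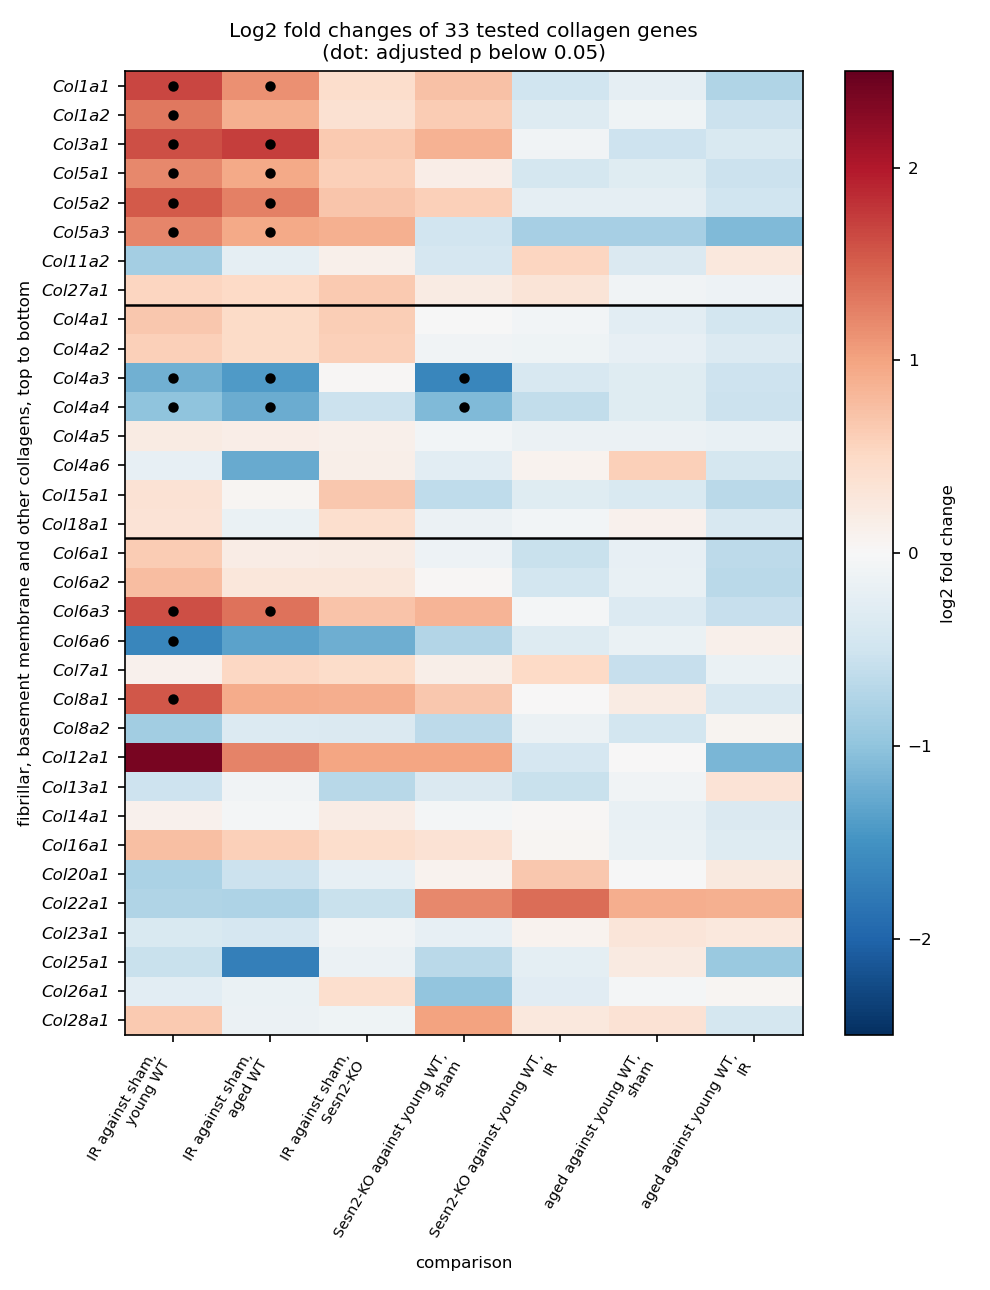
Log2 fold changes of the 33 tested collagen genes in 7 comparisons (colour, red above 0 and blue below), in the order fibrillar, basement membrane and other, with a dot where edgeR's adjusted p was below 0.05. The 11, 8 and 2 dots fall in young IR, aged IR and knockout sham, and the columns that share control libraries are not independent.

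The IR responses themselves were compared by interaction terms. For aged minus young WT edgeR called 0 members, with 0 at an unadjusted p below 0.05, and DESeq2 and voom called 0, against 0% of all genes in either direction. For Sesn2-KO minus young WT edgeR called 0 members, with 4 at an unadjusted p below 0.05 (5.55% of all genes), and DESeq2 and voom called 0, against 0% of genes higher and 0.0577% lower. The response of Col4a3 differed by 1.22 ± 0.35 (adjusted p = 0.56) and that of Col1a1 by -1.23 ± 0.42 (adjusted p = 0.672). The fibrillar calls in young hearts, absent in knockout hearts, are therefore not shown to differ between them. Both interaction terms use the same young libraries.

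Genes that process, break down or sense collagen were taken from 7 lists. Their counts stand beside all-gene shares of 4.17% called higher and 1.90% lower in young IR, 5.36% and 2.24% in aged IR, 0% in knockout IR, and 3.32% and 1.79% in knockout sham. All 5 lysyl oxidase genes, which crosslink collagen, rose after IR in young hearts. Lox was at 8.33 ± 3.59 CPM in young sham and 63.1 ± 28.1 CPM in young IR (SD, n = 3 each), a change of 2.92 ± 0.39 (adjusted p = 0.000606). Loxl1 rose by 1.24, Loxl2 by 1.42, Loxl3 by 1.19 and Loxl4 by 1.503. Of 16 alternatives, these calls were kept in 14 for Lox, 13 for Loxl1, 8 each for Loxl2 and Loxl3 and 6 for Loxl4. In aged hearts 4 of 5 rose, with Lox at 2.76 (adjusted p = 0.000832). In knockout sham against young sham 2 of 5 stood higher, Lox at 1.77 (adjusted p = 0.014) and Loxl4 at 1.498 (adjusted p = 0.0486). These 2 calls were kept in 12 and 5 of 16 alternatives. In knockout IR against sham edgeR called 0, with 4 at an unadjusted p below 0.05 (14.7% of all genes). DESeq2 called 1 (1.04% of all genes) and voom 3 (8.91%). Without the 6 length-following libraries none of the 5 was called in young hearts or in knockout sham (0.158% and 0.668% of all genes). In aged hearts 2 were (10.2% of all genes).

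Of 22 modification and folding genes, 8 rose in young hearts (4.17% of all genes did), 6 in aged hearts (5.36%) and 3 stood higher in knockout sham (3.32%), and 0 fell in any of these. Plod3, a lysyl hydroxylase, rose by 0.72 in young and 0.72 in aged hearts and was 0.63 higher in knockout sham (adjusted p = 0.0109). P4hb, a subunit of prolyl 4-hydroxylase, rose by 0.63 in both WT comparisons and was 0.49 higher in knockout sham. Fkbp10, a chaperone of procollagen, rose by 0.89 and 0.90 in young and aged hearts. Tmem38b, an ion channel of the endoplasmic reticulum, rose by 0.82 and 0.75 and was 0.76 higher in knockout sham. The knockout sham calls of Plod3, P4hb and Tmem38b were kept in 14, 6 and 9 of 16 alternatives. Those of Plod3, P4hb, Fkbp10 and Tmem38b in young IR were kept in 13, 13, 14 and 8.

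Of 11 cleavage and fibril assembly genes, 4 rose in young hearts (4.17% of all genes did), 2 in aged hearts (5.36%), and 1 stood higher in knockout sham (3.32%). Adamts2, which removes the N-terminal propeptide, rose by 0.98 in young hearts (adjusted p = 0.00592). Sparc, a collagen-binding matrix protein, rose by 0.71 in young and 0.67 in aged hearts. Pcolce, which enhances C-propeptide removal, rose by 0.79 in both and was 0.79 higher in knockout sham (adjusted p = 0.0289). Adamts3, a related protease, was at -0.14 in young hearts (adjusted p = 0.759). The Pcolce call in knockout sham was kept in 9 of 16 alternatives. In young IR the calls were kept in 13 for Adamts2 and in 9 each for Sparc and Pcolce.

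Of 13 tested genes of breakdown and uptake, 6 rose in young and 5 in aged hearts. In knockout sham 4 stood higher and 1 lower. Mmp3, which encodes stromelysin, a matrix metalloproteinase, rose by 3.77 ± 0.29 in young (adjusted p = 6.44e-06) and 3.10 ± 0.27 in aged hearts. It was at 97.2 ± 15.6 CPM in knockout sham against 4.93 ± 0.87 CPM in young sham (SD, n = 3 each), a difference of 4.30 ± 0.29 (adjusted p = 1.11e-06). Timp1, an inhibitor of these enzymes, was 5.41 higher in young IR and 4.82 higher in knockout sham, at 84.1 ± 6.64 CPM against 2.99 ± 0.84 CPM (SD, n = 3 each). Mmp14, a membrane-bound collagenase, rose by 1.09 in young and 0.79 in aged hearts, and Mmp13, an interstitial collagenase, was lower in knockout sham by -1.99 ± 0.43 (adjusted p = 0.014). Mmp3 and Timp1 were called in knockout sham in all 16 alternatives, and Mmp13 in 12.

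No collagen receptor was called by edgeR in any of these 4 comparisons, with 2, 3, 0 and 1 of 7 at an unadjusted p below 0.05 in young IR, aged IR, knockout IR and knockout sham, where 21%, 23.7%, 14.7% and 19% of all genes were. DESeq2 called 0, 0, 0 and 1 of them, where it called 9.04%, 10.3%, 1.04% and 7.22% of all genes. Voom called 3, 0, 0 and 1, where it called 19%, 24.8%, 8.91% and 15.6% of all genes. Ddr1, a receptor tyrosine kinase, was at 0.65 in young IR (adjusted p = 0.153), and Itga1, the integrin chain that binds type IV collagen, was at -0.65 in knockout sham (adjusted p = 0.0618). Of 14 tested TGF-beta genes, 2 rose and 1 fell in young hearts (4.17% and 1.90% of all genes did), 2 rose in aged hearts (5.36%) and 2 stood higher in knockout sham (3.32%). Ctgf, a matricellular target of this pathway, rose by 1.66 in young and 1.53 in aged hearts and was 1.97 higher in knockout sham (adjusted p = 0.0178). Tgfbr2 rose by 0.51 in young hearts and was 0.54 higher in knockout sham. Ltbp1, which stores the latent ligand, fell by 0.52 in young hearts (adjusted p = 0.032). Of 16 alternatives, the Ctgf call was kept in 7 in young IR, 8 in aged IR and 10 in knockout sham. That of Tgfbr2 was kept in 11 in young IR and 11 in knockout sham, and that of Ltbp1 in 8.

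Of 11 basement membrane partners of type IV collagen, 0 rose. Agrn, which encodes agrin, fell in young hearts by 0.60 (adjusted p = 0.037) and in aged hearts by 0.76 (adjusted p = 0.0108). The Agrn calls were kept in 9 of 16 alternatives in young and 15 in aged hearts. The laminin genes Lama2, Lamb1 and Lamc1 were at -0.26, -0.06 and 0.28 in young hearts, and Pxdn, which crosslinks type IV collagen, was at -0.64 in knockout sham (adjusted p = 0.0726). In aged IR all 11 had a log2 fold change below 0 (median -0.12), where 6882 of all 13859 genes did. In knockout IR and in knockout sham edgeR called 0 of the 11, with 3 and 4 at an unadjusted p below 0.05 (14.7% and 19% of all genes). DESeq2 called 1 and 1 (1.04% and 7.22% of all genes), and voom 3 and 2 (8.91% and 15.6%). Without the 6 length-following libraries the modification list had 0 calls in young IR, 4 in aged IR and 0 in knockout sham. The breakdown list had 2, 4 and 3, where 0.158%, 10.2% and 0.668% of all genes were called.

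**Figure D5:**
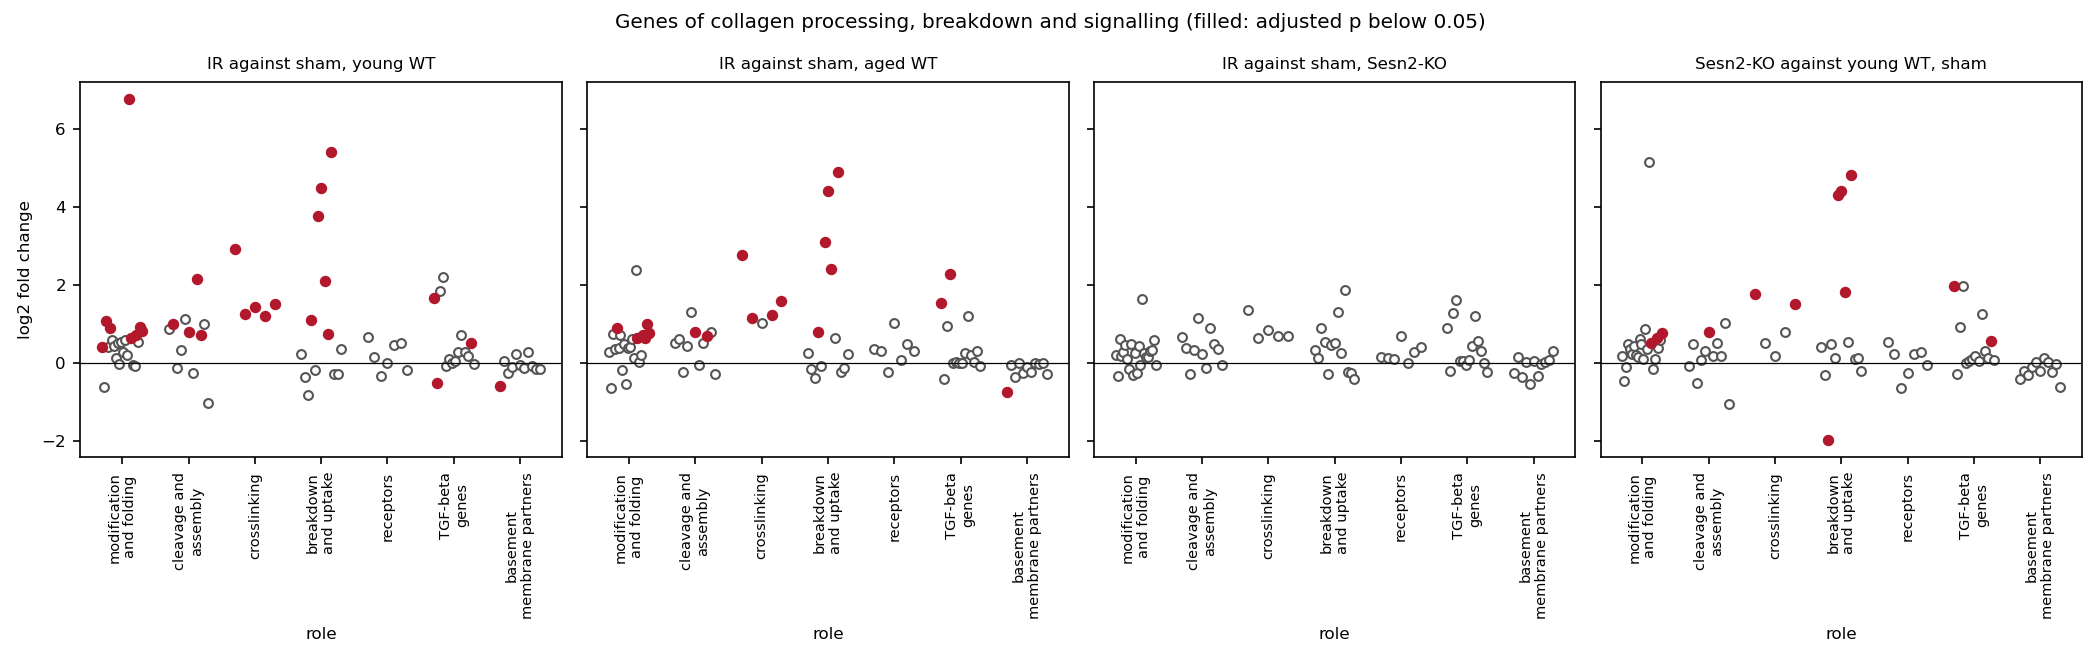
Log2 fold changes of genes that modify, assemble, crosslink, break down or sense collagen, grouped by role (columns of points in alphabetical order), in 4 comparisons, with filled points where edgeR's adjusted p was below 0.05. All 5 crosslinking genes are filled in young IR, and none of the genes is filled in knockout IR. The point at 6.77 in young IR is P4ha3, which had 0 counts in young sham, so its fitted value is no measure of the fold.

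Cell type markers moved with some of these changes. The summed level of 7 fibroblast markers was 1229 to 1804 CPM in young sham and 1286 to 1528 CPM in young IR. That of 6 markers of activated fibroblasts was 177 to 234 CPM in young sham and 118, 925 and 742 CPM in young IR 1, 2 and 3, the same split between libraries as for Col3a1 and Col8a1. In aged hearts it was 201 to 267 CPM in sham and 427, 221 and 382 CPM in aged IR 1, 2 and 3. In knockout hearts it was 182 to 298 CPM in sham and 369 to 532 CPM in IR. The 7 pericyte and smooth muscle markers summed to 779 to 1134 CPM in young sham and 664 to 765 in young IR. Their sums were 872 to 1032 CPM in aged sham and 528 to 691 in aged IR. In knockout hearts they were 546 to 706 CPM in sham and 422 to 585 in IR. The 7 endothelial markers summed to 1235 to 1319 CPM in young sham, 1056 to 1180 in young IR and 824 to 1100 in knockout sham. The 5 mesothelial markers summed to 15.7 to 44.0 CPM in young sham, 5.83 to 63.0 in young IR and 4.99 to 10.2 in knockout sham.

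The 7 cardiomyocyte markers, which check the labelled tissue, summed to 36780 to 38430 CPM in young sham, 28500 to 34150 in young IR and 30250 to 31230 in knockout sham, with no overlap with young sham. They summed to 36300 to 37720 CPM in aged sham, 28920 to 34360 in aged IR and 25100 to 29710 in knockout IR. The 7 macrophage markers summed to 405 to 652 CPM in young sham, 578 to 838 in young IR and 762 to 808 in knockout sham. Those of neutrophils summed to 4.78 to 6.81 CPM in young sham, 53.2 to 114 in young IR and 29.1 to 81.4 in knockout sham. The 5 atrial markers summed to 225 to 317 CPM in young sham and 148 to 701 in young IR. Their sums were 178 to 271 CPM in aged sham and 176 to 568 in aged IR. In knockout hearts they were 228 to 730 CPM in sham and 860 to 1690 in IR. No marker of any list was at 0, and Bmp10 (atrial) and Chad (valve and cartilage) stayed under 0.5 CPM. The part of cell mixture in the collagen differences was not tested.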

How the data were processed

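RNA of 18 left ventricles was measured by RNA-seq, with mRNA libraries made by a stranded kit and read in pairs, per the labels' protocols. For every sample the authors deposited raw counts, as whole numbers listed by gene symbol. The tools were HTSeq, TopHat2, Bowtie2, SAMtools and FastQC and the build mm10, per the submitters' processing notes. The strand setting of the counting and its annotation were not given in the sources used here. The 2 summary lines of each table, 6.12% to 9.06% (no feature) and 0.631% to 0.759% (ambiguous) of counts, stayed out of library sizes and tests. Where strand was not used in counting, reads of the exon bases that Col4a1 shares with Col4a2, Col7a1 with Mir711 and Col9a3 with Tcfl5 cannot be assigned.

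Groups came from sample titles. Since the labels name no litter, day of surgery or batch, a p-value here reflects only how samples spread, which may be technical. No 2 replicates were identical (chi-square per degree of freedom 8.9 to 50.85 over 18 pairs). Counting limits cover counting error only.

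The test was edgeR 4.0.16 (R 4.3.3): filterByExpr (13859 of 24421 genes kept), TMM scaling, and a quasi-likelihood fit with robust dispersion of 1 mean per group to all 18 libraries. Comparisons were contrasts of that fit, adjusted by Benjamini-Hochberg over all tested genes with a call at an adjusted p under 0.05. Printed CPM rest on TMM-scaled library sizes; the member rule used raw totals. Positions and longest transcripts were taken from GENCODE M21 (GRCm38) by symbol (95.6% found once), and upstream sequences from RefSeq. The fit was tested on simulated counts, which held no trend with transcript length and no library that stood apart from its group. Changes were planted only in genes with a mean above 1 CPM. The shares recovered do not cover lower genes or a group with a deviating library. For young IR it recovered 66% of 2-fold and 94% of 4-fold changes, with 9 false calls. For knockout sham it recovered 65% and 95%, with 7 false calls.

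The members, classes, lists and tests were chosen with earlier results of these data known. Named were all called members, 12 chains of main types (Col1a1, Col1a2, Col3a1, Col4a1, Col4a2, Col5a1, Col6a1, Col8a1, Col12a1, Col14a1, Col15a1 and Col18a1), and up to 3 genes of smallest p from each pathway list in young IR or knockout sham; Col22a1, Col27a1, Col6a2, Col11a2 and, where not called, Col4a3, Col4a4, Col5a3, Col6a3 and Col6a6, and members named only by level per length, by ratio or in the closing section, were added after their values were seen. Alternatives were the Wald test of DESeq2 1.42.0, limma 3.58.1 voom with quality weights, upper quartile scaling, DESeq2 size factors, no filter, fitting only the compared groups, a replicate block, a length slope covariate, and leaving out each library or the 6 libraries (library 3 of every IR group and of knockout sham, young sham 1 and aged sham 2) that follow length most. Added after seeing the data was the set with the highest positive slope, which holds aged sham 1 in place of aged sham 2.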

Additional observations from a re-analysis of the deposited data

Results flagged for a closer look

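Mmp3, which encodes a matrix metalloproteinase, is listed because its response to IR differed between Sesn2-KO and young WT hearts in a test of the difference itself. The response was lower in the knockout by a log2 difference of -3.32 ± 0.37 (edgeR interaction term, adjusted p = 0.000711). Its level was 4.93 ± 0.87 CPM in young sham, 67.2 ± 12.6 CPM in young IR, 97.2 ± 15.6 CPM in knockout sham and 133 ± 20.4 CPM in knockout IR (SD, n = 3 each). The knockout sham level was thus above the young IR level. The difference ran from -3.47 to -3.05 over the alternatives and was not called without the 6 libraries of highest length slope.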

How the results depend on the processing

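Changes of sign were counted over 125 gene results (a gene's log2 fold change in a comparison): 113 kept their sign in every alternative run, among them all 21 called collagen results. Limma voom with quality weights gave 19, 16, 5, 7 and 3 collagen calls for young IR, aged IR, knockout IR, knockout sham and knockout against young IR, where edgeR gave 11, 8, 0, 2 and 0. Voom called 19%, 24.8%, 8.91%, 15.6% and 1.64% of all genes in these. The length slope covariate gave 14, 11 and 3 in young IR, aged IR and knockout sham (12.9%, 19.9% and 11.6% of all genes). A fit of the compared groups alone gave 2, 11 and 3 in young IR, aged IR and knockout sham (1.28%, 6.65% and 4.63% of all genes). No filter on low counts gave 10, 5 and 2 (3.37%, 4.08% and 2.96%). The DESeq2 Wald test gave 13, 11 and 3 (9.04%, 10.3% and 7.22%), and 1 in aged against young IR (0.218%). Without the 6 length-following libraries the counts were 0 in young IR, 1 in aged IR and 1 in knockout sham, and without those of highest slope 0, 0 and 1. Both leave 2 libraries per group and called 0.158% and 0.115% of all genes in young IR, 10.2% and 0.762% in aged IR and 0.668% and 1.04% in knockout sham. Leaving out each library gave 4 to 15 in young IR, 2 to 9 in aged IR, 1 to 2 in knockout sham and 0 to 1 in aged against young IR. In the same runs 270 to 1465, 232 to 1070, 296 to 462 and 1 to 16 of all genes were called. The cause was not tested.

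The 12 results that changed sign in some alternative were all uncalled. With voom, Col14a1 went to 0.11 in aged IR, -0.071 in knockout IR and 0.19 in knockout sham, Col6a1 to -0.16 and Col4a3 to -0.082 in knockout IR. Without the length-following libraries, Col14a1 was at 0.34 in aged IR and 0.044 in knockout sham, Col15a1 at -0.062 and Col18a1 at 0.018 in aged IR. Without those of highest slope, Col14a1 was at 0.11 in aged IR and 0.048 in knockout sham and Col15a1 at -0.12 in aged IR. Leaving out each library, Col14a1 ran from -0.45 to 0.50 in young IR, -0.21 to 0.20 in aged IR, -0.15 to 0.39 in knockout IR and -0.26 to 0.16 in knockout sham. Col15a1 ran from -0.084 to 0.18 in aged IR, and Col6a1 from -0.21 to 0.49 and Col4a3 from -0.16 to 0.16 in knockout IR. In knockout sham Col4a1 ran from -0.24 to 0.092, Col4a2 from -0.43 to 0.081, Col6a1 from -0.27 to 0.068 and Col18a1 from -0.31 to 0.037.

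The labels do not say what a replicate number marks. Same-numbered libraries correlated from -0.468 to 0.803 in their deviations, and in 1 of 15 pairs of groups every correlation was over 0.1, so the numbers were not taken to pair samples. With the replicate block 10 members were called in young IR, 8 in aged IR and 2 in knockout sham. Of 13859 genes, 879, 1236 and 755 were called there. Col6a5, Col9a3 and Col17a1 fell under the filter on low counts. Without that filter all 36 members were tested, and none of these 3 was called in any comparison.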

Other observations

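Collagen genes under the minimum were few and low. Among the 8 rows left out, Col9a2 held the most counts, 57 over all 18 libraries, and reached 0.593 CPM at most. The cartilage fibrillar genes Col2a1 and Col11a1 held 15 and 24 counts and the growth plate gene Col10a1 held 3. The fibrillar gene Col24a1 held 18, the type VI gene Col6a4 13, Col19a1 16 and Col9a1 4.

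Of the transmembrane collagens, Col13a1, a component of neuromuscular junctions, was at 1.08 to 2.77 CPM in young sham and 0.845 to 2.13 CPM in young IR, with overlap. Col23a1 was at 3.19 to 5.73 CPM in young sham and 2.07 to 4.35 CPM in young IR, also with overlap. Col25a1, at 0.904, 0.826 and 1.04 CPM in aged sham and 0.0758, 0.559 and 0.265 CPM in aged IR, did not overlap and was not called (log2 fold change -1.70 ± 0.52, edgeR adjusted p = 0.0545). Col4a6 was at 3.34, 3.68 and 3.50 CPM in aged sham and 1.59, 2.24 and 0.618 CPM in aged IR (-1.26 ± 0.39, adjusted p = 0.0604). The log2 fold changes of Col25a1 and Col4a6 after IR were -0.56 and -0.21 in young and -0.14 and 0.14 in knockout hearts. The response in aged minus young hearts was not called for either gene (both adjusted p = 1).

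The ratio of Col3a1 to Col1a1 per length also varied between groups. It was 3.39 to 4.39 in young sham and 2.89 to 3.79 in young IR, which overlapped. It was 2.89 to 3.39 in aged sham and 4.43 to 4.97 in aged IR, without overlap. Knockout sham libraries were at 3.52 to 4.67 and knockout IR libraries at 4.55 to 5.12. The ratio of Col5a1 to Col1a1 was 0.529 to 0.611 in young sham, 0.373 to 0.437 in young IR and 0.339 to 0.422 in knockout sham. No test was run on these ratios.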
